A study of Mus musculus with 19 samples.

Results

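The 9 genes described here mark microglia in their homeostatic state in the mouse brain: the purinergic receptors *P2ry12* and *P2ry13*, the lipid-sensing receptor *Gpr34*, the fractalkine receptor *Cx3cr1*, the surface proteins *Siglech*, *Fcrls* and *Tmem119*, the secreted glycoprotein gene *Olfml3*, and the transcription factor *Sall1*. They were chosen by name as identity genes of microglia, with earlier results of these data known. All 9 were found among the 56980 genes of the count table, and all 9 were among the 18739 genes that passed the low-count filter and were tested. RNA was sequenced from cells that magnetic beads against CD11b, an integrin of microglia and other myeloid cells, had pulled from the brains of male mice aged 3 to 4 months, without olfactory bulb and cerebellum. Wildtype (WT) mice were compared with littermates lacking *PARK7*/DJ-1 (KO), of the strain B6;129P2-Park7 Gt(XE726) Byg/Mmucd, which carries a gene trap in *Park7* and had been backcrossed to C57BL/6NCrl. Mice received 1 intraperitoneal injection of lipopolysaccharide (LPS, from *E. coli* O55:B5, 4 μg/g body weight) or of saline (PBS), and brains were taken 6 h later after perfusion. There were 4 WT PBS, 5 WT LPS, 5 KO PBS and 5 KO LPS libraries, each from 1 mouse.

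Microglia are the resident macrophages of the brain parenchyma. They settle there before birth, and their identity is held by signals of the brain, mainly TGF-beta and ligands of the CSF1 receptor, acting on factors such as SALL1, MEF2 and PU.1. Homeostatic microglia survey the tissue with moving processes, for which P2RY12 senses nucleotides released by damaged cells, and CX3CR1 binds the fractalkine that neurons present. These genes serve to tell microglia from monocytes and other brain macrophages, and many of them are known to lose transcript when microglia respond to inflammation.

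Library depth ranged from 11936364 to 22788884 counts (median 17211939), so that 3 counts corresponded to 0.139 to 0.256 CPM. Levels below are given as CPM, counts scaled to a common library size after TMM normalization. Such a floor covers counting error only. *Park7* was present at 20.6 to 32.1 CPM in the WT libraries and at 0.457 to 5.38 CPM in the KO libraries, with no overlap, as the labels state (KO against WT log2FC −3.74 at PBS, adjusted p = 0.000389, and −2.88 after LPS, adjusted p = 0.00679, by edgeR's quasi-likelihood test). The summed level of 6 LPS response genes (*Tnf*, *Il1b*, *Il6*, *Cxcl10*, *Lcn2*, *Nfkbia*) was 2155 to 5814 CPM in the LPS libraries and 223 to 452 CPM in the PBS libraries. Among the KO LPS libraries, library 3 stood apart in the balance of the identity genes, as described below, and the values that it moved most are also given without it.

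Sequences upstream of 4 of the genes are shown, for a neighbouring pair of receptor genes that fell by different amounts after LPS and for the pair of genes that fell least. RefSeq promoter windows, from 250 bases before to 50 after a transcript start on GRCm38.p6, were matched by symbol for 7 of the 9 genes (not *Tmem119* and *Gpr34*), and 4 of them are printed 5′ to 3′ on the strand of the gene. *P2ry12* (chr3:59262936-59263235, minus strand) and *P2ry13* (chr3:59210833-59211132, minus strand) are neighbouring receptor genes. *Cx3cr1* (chr9:120068247-120068546, minus strand) and *Fcrls* (chr3:87263475-87263774, minus strand) kept the largest part of their transcript after LPS. Capitals mark AGGAAG, the core bound by PU.1 and other ETS factors, and its reverse complement.
P2ry12: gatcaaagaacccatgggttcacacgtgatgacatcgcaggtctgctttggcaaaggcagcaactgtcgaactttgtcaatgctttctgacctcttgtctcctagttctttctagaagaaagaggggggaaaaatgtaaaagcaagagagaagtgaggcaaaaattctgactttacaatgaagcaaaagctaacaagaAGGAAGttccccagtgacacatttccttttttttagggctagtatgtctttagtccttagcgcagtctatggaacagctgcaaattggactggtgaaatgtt
P2ry13: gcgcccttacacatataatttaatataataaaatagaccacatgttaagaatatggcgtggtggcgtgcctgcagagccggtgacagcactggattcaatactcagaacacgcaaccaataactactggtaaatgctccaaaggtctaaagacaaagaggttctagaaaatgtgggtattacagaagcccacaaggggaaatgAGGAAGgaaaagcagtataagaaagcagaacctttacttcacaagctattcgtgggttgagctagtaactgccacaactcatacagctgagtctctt
Cx3cr1: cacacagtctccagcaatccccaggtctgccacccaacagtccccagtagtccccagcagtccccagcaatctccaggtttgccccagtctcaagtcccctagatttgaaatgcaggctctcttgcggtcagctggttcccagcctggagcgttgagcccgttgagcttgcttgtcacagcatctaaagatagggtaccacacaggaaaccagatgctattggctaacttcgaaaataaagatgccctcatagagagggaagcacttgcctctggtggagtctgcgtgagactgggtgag
Fcrls: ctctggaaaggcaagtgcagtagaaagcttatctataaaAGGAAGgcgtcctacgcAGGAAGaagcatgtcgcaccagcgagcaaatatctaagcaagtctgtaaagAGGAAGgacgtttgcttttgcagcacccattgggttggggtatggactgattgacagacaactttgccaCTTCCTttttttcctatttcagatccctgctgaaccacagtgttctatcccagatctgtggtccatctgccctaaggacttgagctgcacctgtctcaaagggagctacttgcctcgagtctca
The AGGAAG core was found on either strand in the windows of *P2ry12*, *P2ry13*, *Sall1*, *Fcrls* and *Olfml3*, that is for 5 of 7 genes, while 35.4% of all 32851 windows held it. The *Fcrls* window had 4 matches, a number that 0.432% of all windows reached. CTA and TAG with 4 free bases between, a loose form of the MEF2 site, was found for *Cx3cr1* and in 3.69% of all windows. In *Cx3cr1* the free bases included a G, where the MEF2 site holds A or T. A loose NF-kB pattern (GGGA and CC with 4 free bases between) was found for *P2ry12* and *Sall1* and in 20.7% of all windows. No window of the 7 genes held TGANTCA (AP-1, 7.81% of all windows) or GAAA repeated after 2 free bases (an interferon regulatory factor site, 3.44%). *Sall1* has 3 windows and so more chance of a match than the other genes. These matches are letters in a window and not measured binding.

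LPS lowered 8 of the 9 identity genes within 6 h in both genotypes, with *Gpr34* and *P2ry12* falling furthest and *Fcrls* as the exception. For LPS against PBS, a call required an adjusted p of less than 0.05 together with a log2FC beyond 0.5 in size. In WT mice 8 of 9 were called lower and 0 higher, where 17.4% of all genes tested were called lower and 18.4% higher. In KO mice the same 8 genes were called lower and 0 higher, beside 19% of all genes lower and 20.1% higher. For each of these 8 genes, every LPS library lay below every PBS library of its genotype, as did 17% of all genes in WT and 16.6% in KO. The median log2FC of the 9 genes was −1.76 in WT and −1.43 in KO, and that of all genes −0.063 and −0.010. In such bulk samples, fewer microglia among the sorted cells and less of a transcript in each cell cannot be told apart. When libraries were scaled to 6 other microglial genes, among them *C1qa*, *C1qb* and *Csf1r*, in place of TMM, the median of all genes shifted to 0.67 in WT and 0.61 in KO, and calls over all genes moved to 8035 higher and 907 lower in WT and 7564 higher and 1186 lower in KO, from 3456 and 3265 in WT and 3759 and 3564 in KO. On that scale 7 of the 9 genes were still called lower in each genotype, *Cx3cr1* was no longer called, and the sign of *Fcrls* turned.

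**Figure D1:**
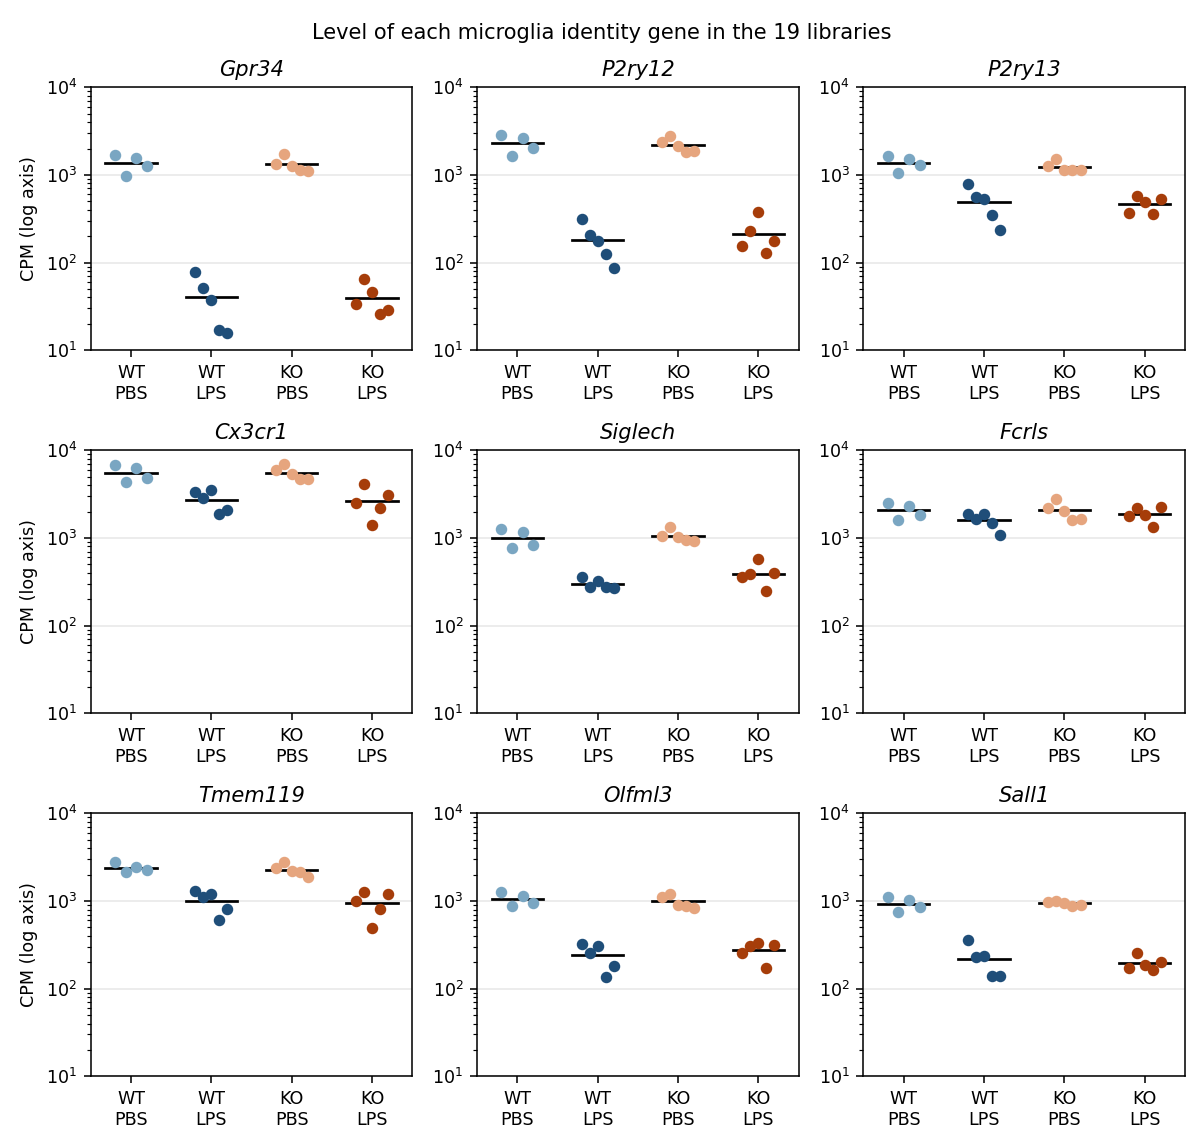
CPM on a log axis of the 9 identity genes in each library (points, replicates 1 to 5 from left to right within a group) with the group mean (line). *Gpr34* goes from 972 CPM or more in every PBS library to 78.5 CPM or less in every LPS library, while the *Fcrls* points of LPS and PBS libraries overlap.

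*Gpr34* encodes a receptor for lysophosphatidylserine. It lies on chromosome X (GRCm39 13489625 to 13507116, plus strand) within *Cask*, a gene of the opposite strand, with which it shares no exonic base. In WT mice its level was 1674, 972, 1566 and 1250.3 CPM in the PBS libraries and 78.5, 51.3, 37.4, 17.0 and 15.8 CPM in the LPS libraries. In KO mice it was 1322, 1739, 1263, 1141 and 1113 CPM with PBS and 33.5, 64.7, 46.4, 26.1 and 28.7 CPM with LPS. The gap between the treatments was far wider than the spread within any group, although the WT LPS libraries themselves differed, with libraries 4 and 5 lowest. LPS lowered *Gpr34* 34.1-fold in WT (log2FC −5.09, SE 0.43, adjusted p = 2.72e-08 by edgeR) and 33-fold in KO (log2FC −5.04, SE 0.42, adjusted p = 1.54e-08). No other gene with a mean of at least 100 CPM, of 2441 such genes, had a lower log2FC than *Gpr34* in either genotype. *Gpr34* reached that mean through its PBS libraries. Over all 18739 genes tested, its log2FC had rank 15 from the lowest in WT and rank 17 in KO. *Cask* also fell, with a log2FC of −1.16 in WT and −1.09 in KO.

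*P2ry12* encodes the ADP receptor that guides microglial processes to injury. It lies on chromosome 3 (GRCm39 59123682 to 59170429, minus strand) inside *Med12l* of the opposite strand, with 294 exonic bases in common. Its WT levels were 2857, 1664, 2625 and 2009 CPM with PBS and 311, 208, 175, 124 and 87.1 CPM with LPS. The KO levels were 2347, 2808, 2121, 1844 and 1895 CPM with PBS and 154, 230.1, 382, 130.0 and 175 CPM with LPS. Every LPS library lay far below the lowest PBS library of its genotype, and KO LPS library 3 was the highest of the treated libraries. LPS lowered *P2ry12* 12.6-fold in WT (log2FC −3.66, SE 0.35, adjusted p = 1.28e-07) and 10.3-fold in KO (log2FC −3.36, SE 0.34, adjusted p = 1.73e-07). Without KO LPS library 3 the KO value was −3.68. *Med12l* itself was not called, with log2FC −0.48 in WT and −0.24 in KO.

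*P2ry13* encodes another ADP receptor of microglia, next to *P2ry12* and also inside *Med12l* (chromosome 3, GRCm39 59114539 to 59118304, minus strand, no exonic base in common). The WT PBS libraries held 1656, 1047, 1502 and 1291 CPM and the WT LPS libraries 779, 554, 536, 351 and 235 CPM. Among KO mice the values were 1279.8, 1509.8, 1138, 1128 and 1146 CPM with PBS and 372, 569, 497, 353 and 536 CPM with LPS. The groups of each genotype did not overlap, but the fall was much smaller than that of its neighbour. It amounted to 2.80-fold in WT (log2FC −1.48, SE 0.25, adjusted p = 0.000103) and 2.67-fold in KO (log2FC −1.41, SE 0.24, adjusted p = 9.14e-05). *P2ry14*, a receptor gene of the same family, was not called in either genotype, at a mean of 4.49 CPM in WT PBS libraries.

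*Cx3cr1* encodes the receptor for fractalkine on microglia and monocytes and lies on chromosome 9 (GRCm39 119877749 to 119898945, minus strand). WT mice had 6808, 4348, 6291 and 4863 CPM with PBS and 3316, 2857, 3537, 1883 and 2084 CPM with LPS. KO mice had 5951, 6944, 5311, 4726 and 4696 CPM with PBS and 2477, 4155, 1417, 2175 and 3106 CPM with LPS. The treatments did not overlap, with KO LPS library 2 closest to the untreated libraries, and KO LPS library 3 was the lowest of all 19. LPS lowered *Cx3cr1* 2.04-fold in WT (log2FC −1.03, SE 0.27, adjusted p = 0.00408) and 2.07-fold in KO (log2FC −1.05, SE 0.25, adjusted p = 0.00212), and by −0.89 in KO without library 3. Scaled to the 6 microglial genes, the log2FC was −0.28 in WT (adjusted p = 0.290) and −0.41 in KO (adjusted p = 0.0939), which was not called.

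*Siglech* encodes a sialic acid binding lectin that marks microglia and plasmacytoid dendritic cells (chromosome 7, GRCm39 55417926 to 55429195, plus strand). Its WT libraries held 1268, 758, 1181 and 839 CPM with PBS and 354, 273, 325, 276 and 265 CPM with LPS. Its KO libraries held 1039.6, 1348, 1026, 949.5 and 918 CPM with PBS and 356, 384, 571, 250.3 and 396 CPM with LPS. The 5 WT LPS libraries were close together, with an SD of 0.18 on the log2 CPM scale, the smallest of the 9 genes in that group. LPS lowered *Siglech* 3.39-fold in WT (log2FC −1.76, SE 0.20, adjusted p = 1.12e-06) and 2.7-fold in KO (log2FC −1.43, SE 0.19, adjusted p = 5.75e-06). Without KO LPS library 3, the highest of its group, the KO value was −1.61.

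*Fcrls* encodes an Fc receptor-like molecule found on microglia and not on infiltrating monocytes. It is named *Fcrl2* in the annotation used here and lies on chromosome 3 (GRCm39 87156616 to 87181827, minus strand). WT levels were 2538, 1599.8, 2328 and 1843 CPM with PBS and 1880.3, 1667, 1887, 1499.8 and 1074 CPM with LPS. KO levels were 2226, 2806, 2005, 1613 and 1655 CPM with PBS and 1788, 2184, 1832, 1342 and 2282 CPM with LPS. Treated and untreated libraries overlapped in both genotypes, which was true of no other gene of the 9. The log2FC was −0.38 in WT (95% interval −0.81 to 0.065, adjusted p = 0.168) and −0.13 in KO (−0.54 to 0.29, adjusted p = 0.640). Neither was called, and both intervals lie above the log2FC estimated for each of the other 8 genes of the same genotype. On the scale of the 6 microglial genes the sign turned, to 0.38 in WT (adjusted p = 0.0103, below the fold threshold) and 0.50 in KO (adjusted p = 0.000761, called higher). *Fcrl1*, a gene of the same family, fell in both genotypes (log2FC −2.40 and −2.24).

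*Tmem119* encodes a transmembrane protein used to stain microglia (chromosome 5, GRCm39 113931781 to 113938577, minus strand). In the WT PBS libraries it stood at 2788, 2125, 2464 and 2234 CPM, and in the WT LPS libraries at 1307, 1105, 1209, 608 and 801 CPM. In the KO PBS libraries it stood at 2363, 2762, 2180.0, 2157 and 1878 CPM, and in the KO LPS libraries at 1009, 1270.0, 487, 811 and 1194 CPM. Each treated library lay well below the untreated ones, and KO LPS library 3 was the lowest of all. LPS lowered *Tmem119* 2.39-fold in WT (log2FC −1.26, SE 0.25, adjusted p = 0.000376) and 2.38-fold in KO (log2FC −1.25, SE 0.24, adjusted p = 0.00022), with −1.08 in KO without library 3. Scaled to the 6 microglial genes it was still called, at −0.54 in WT and −0.61 in KO.

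*Olfml3* encodes a secreted olfactomedin-like protein of the extracellular matrix (chromosome 3, GRCm39 103629538 to 103645322, minus strand). The WT values were 1265, 874, 1156 and 956 CPM with PBS and 323, 254, 307, 135 and 179.8 CPM with LPS. The KO values were 1123, 1212, 903, 885 and 839 CPM with PBS and 258, 310.5, 332, 174 and 312 CPM with LPS. No LPS library reached the lowest PBS library. LPS lowered *Olfml3* 4.43-fold in WT (log2FC −2.15, SE 0.24, adjusted p = 6.46e-07) and 3.58-fold in KO (log2FC −1.84, SE 0.23, adjusted p = 1.87e-06).

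*Sall1* encodes the zinc finger factor that keeps the microglial programme (chromosome 8, GRCm39 89753863 to 89770823, minus strand). It lies inside the long noncoding gene *Gm3134* of the opposite strand and shares 678 exonic bases with it. WT libraries held 1099.5, 742, 1021 and 857 CPM with PBS and 357, 229, 235, 138 and 139 CPM with LPS. KO libraries held 966, 999.6, 955, 874 and 912 CPM with PBS and 173, 254, 186, 162 and 201 CPM with LPS. The KO groups were tight and far apart, and the WT groups were wider but also did not overlap. LPS lowered *Sall1* 4.23-fold in WT (log2FC −2.08, SE 0.23, adjusted p = 5.67e-07) and 4.82-fold in KO (log2FC −2.27, SE 0.22, adjusted p = 1.07e-07). Among its relatives, *Sall2* fell (log2FC −1.27 and −1.42), and *Sall3* was not called (−0.19 and −0.28). Where *P2ry12*, *Sall1*, *Cx3cr1* (78 exonic bases with *Gm33858*) and *Olfml3* (124 with *Gm65812*) overlap a gene of the other strand, the assignment of reads depends on the strand setting of the counting, which is not given in the sources used here.

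**Figure D2:**
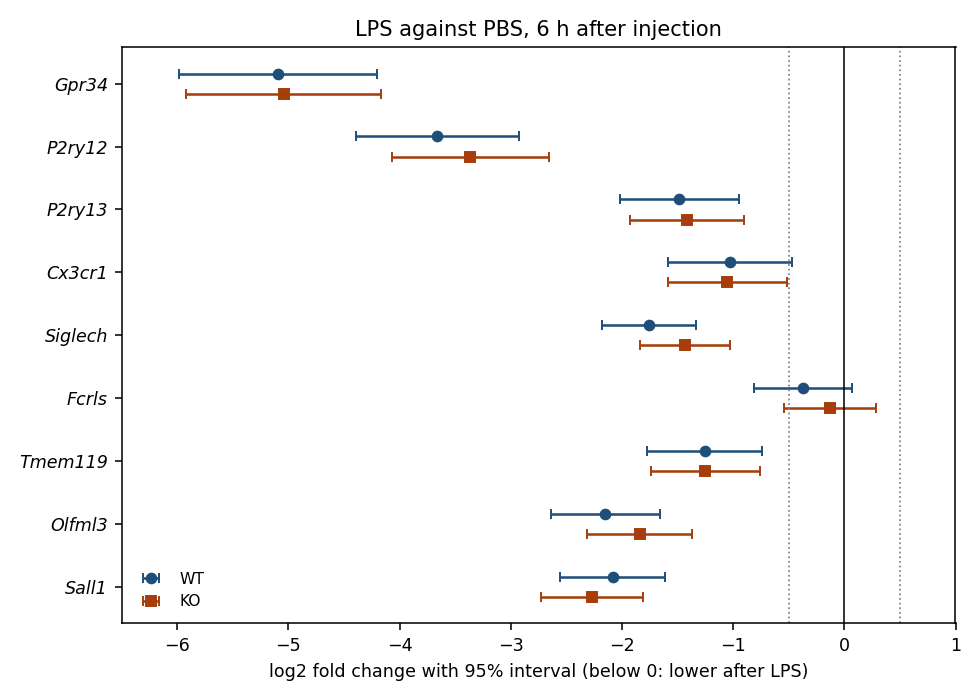
log2FC of LPS against PBS for the 9 genes in WT (circles) and KO (squares), with 95% intervals from the edgeR fit over all 19 libraries and dotted lines at −0.5 and 0.5. The intervals of 8 genes lie below 0 in both genotypes and those of *Fcrls* include 0, and *Fcrls* turns to 0.38 and 0.50 when libraries are scaled to 6 microglial genes.

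To compare levels between genes, CPM was divided by the merged exon length in kb. With PBS the order was the same in both genotypes, namely *Cx3cr1*, *Tmem119*, *P2ry12*, *Fcrls*, *Gpr34*, *P2ry13*, *Siglech*, *Olfml3* and *Sall1*, from 1198 ± 249 to 136 ± 23.6 CPM per kb in WT (SD, n = 4). *Cx3cr1* lay above the second gene, and *P2ry13* above *Siglech*, without overlap between libraries in both genotypes, while all other neighbours overlapped in range. Within single libraries, most genes lay above the next in all 4 WT and all 5 KO PBS libraries. The exceptions were *Tmem119* over *P2ry12* (2 of 4 and 2 of 5) and, in WT, *Gpr34* over *P2ry13* (3 of 4). After LPS the order was *Cx3cr1*, *Fcrls*, *Tmem119*, *P2ry13*, *Siglech*, *P2ry12*, *Olfml3*, *Sall1* and *Gpr34* in both genotypes, from 587 ± 157 to 13 ± 8.51 CPM per kb in WT (n = 5). All neighbours in the treated order overlapped in range, except *Sall1* above *Gpr34* in KO. Within single libraries, most genes again lay above the next in all 5 LPS libraries of a genotype. The exceptions in WT were *Siglech* over *P2ry12* (3 of 5), *P2ry12* over *Olfml3* and *Olfml3* over *Sall1* (4 of 5 each). In KO they were *Cx3cr1* over *Fcrls*, *Tmem119* over *P2ry13* and *Siglech* over *P2ry12* (4 of 5 each). *Fcrls* moved from the fourth to the second place, *P2ry12* from the third to the sixth, and *Gpr34* from the fifth to the last. With the length of the canonical transcript in place of merged exons, *Fcrls* stood above *Cx3cr1* in KO LPS libraries (829 against 709 CPM per kb) and *Siglech* above *P2ry13* in 3 groups, with PBS in WT (464 against 416) and KO (485 against 376) and with LPS in KO (179.6 against 141). *Cx3cr1* overlapped *Tmem119* in the WT PBS libraries with that length, so these places depend on the length used.

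The make-up of the identity genes within a library does not depend on the library scaling. Shares of the summed CPM are not per length and are compared here only between groups for the same gene. Within the summed CPM of the 9 genes, which fell from a mean of 18090 to 6813 CPM in WT and from 17604 to 7089 CPM in KO, the share of *Gpr34* went from 7.51% ± 0.425 (SD, n = 4) with PBS to 0.546% ± 0.253 (n = 5) with LPS in WT. The share of *P2ry12* went from 12.6% ± 0.595 to 2.56% ± 0.699. In turn *Fcrls* rose from 11.5% ± 0.118 to 23.9% ± 3.37 of the sum in WT, and from 11.6% ± 0.847 to 26.9% ± 3.31 in KO. *Cx3cr1* made up 30.8% ± 0.484 of the sum with PBS and 40.2% ± 2.54 with LPS in WT. The shares given did not overlap between treatments, and they are a description without a test. In KO mice the share of *Cx3cr1* overlapped, through library 3. Ratios between genes show how tight the balance was before LPS. The *Cx3cr1* to *P2ry12* ratio of CPM lay between 2.38 and 2.61 in the 4 WT PBS libraries and between 2.47 and 2.56 in the 5 KO PBS libraries. It spread to 10.6 to 23.9 in WT LPS libraries. The *Fcrls* to *P2ry12* ratio lay between 0.873 and 0.999 in all 9 PBS libraries, and between 4.8 and 13 in all 10 LPS libraries, or from 6.04 upwards without KO LPS library 3.

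**Figure D3:**
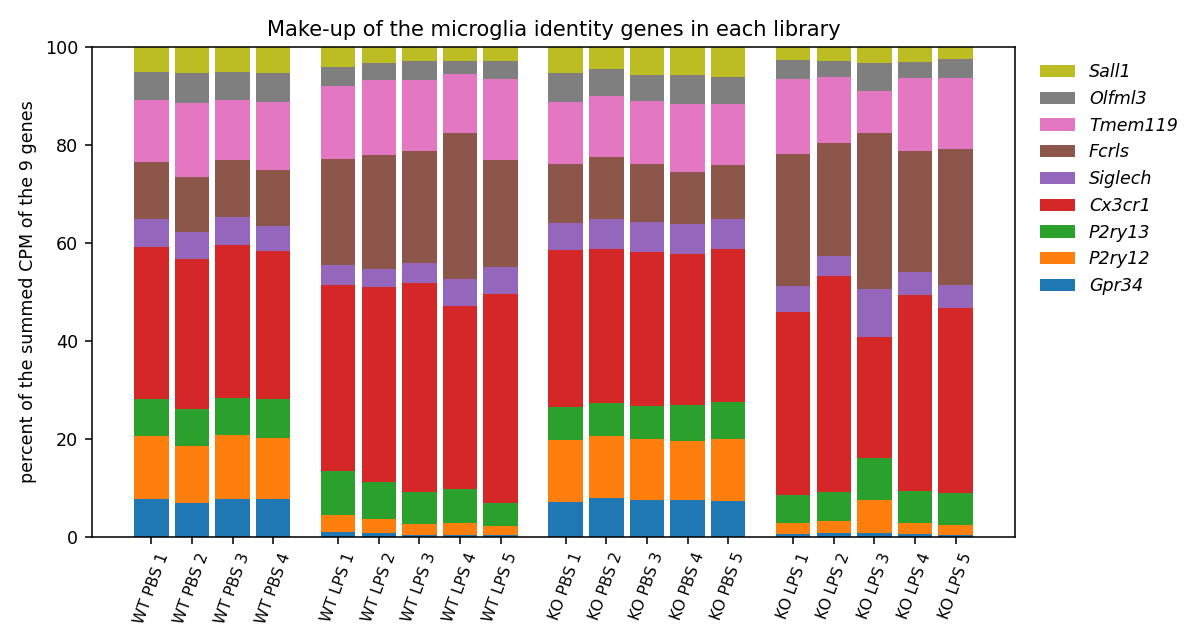
Share of each gene in the summed CPM of the 9 identity genes, in percent, with 1 stacked bar per library. The 9 PBS bars look alike, and the LPS bars show a larger *Fcrls* band and narrow *P2ry12* and *Gpr34* bands, with KO LPS library 3 apart from the other 4 KO LPS libraries.

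KO LPS library 3 differed in this balance from the other treated KO libraries. It was highest of its group for *P2ry12*, *Siglech* and *Olfml3* and lowest for *Cx3cr1* and *Tmem119*, and its *Cx3cr1* to *P2ry12* ratio was 3.71 where the other 4 lay between 16.1 and 18.1. Its sum over 31 other homeostatic genes was 35614 CPM, beside 22524 to 35529 CPM in the other 4. Its summed monocyte and neutrophil markers (1140.1 CPM) were the highest of the group (437 to 959 CPM in the other 4). Their part in its balance was not tested. Some PBS libraries differed from the rest of their group in 1 direction for all 9 genes. WT PBS library 2 was the lowest of its group for all 9 genes and had the most RNA of other brain cells there (13 markers with a sum of 4110 CPM, against 644 CPM in the lowest library of the group). In the other groups the highest sums of these markers were in KO LPS library 1 (4213 CPM), KO PBS library 1 (3108 CPM) and WT LPS library 2 (3075 CPM). Each of these libraries was lowest of its group for 0 of the 9 genes. WT PBS library 1 and KO PBS library 2 were the highest of their groups for all 9 genes, and the part of these library differences in the results was not tested beyond leaving each library out, under which the 8 genes stayed called lower in both genotypes.

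No difference between KO and WT mice passed the test for any of the 9 genes, with or without LPS. For KO against WT, a call required an unadjusted p of less than 0.05 together with a log2FC beyond 0.5 in size. After LPS 0 of 9 genes were called by edgeR, and 0 had an unadjusted p under 0.05, where 1.31% of all genes tested were called. The groups overlapped for all 9 genes, as they did for all but 0.219% of all genes. The largest difference was that of *Siglech*, with 265 to 354 CPM in WT and 250.3 to 571 CPM in KO (log2FC 0.39, SE 0.19, 95% interval −0.0064 to 0.79, unadjusted p = 0.0534, adjusted p = 1.00). Leaving out 1 library at a time moved this value between 0.22, without KO LPS library 3 (unadjusted p = 0.233), and 0.52, without KO LPS library 4 (unadjusted p = 0.00959, which would be called, adjusted p = 1). *P2ry12* and *Fcrls* were each at 0.24, *Olfml3* at 0.21, *Gpr34* at −0.0065, *Cx3cr1* at −0.037, *Tmem119* at −0.076, *P2ry13* at −0.078 and *Sall1* at −0.17. Without KO LPS library 3 the sign turned for *P2ry12* (−0.071), *Cx3cr1* (0.12) and *Tmem119* (0.091), and *Olfml3* was at 0.14. The widest bounds of the 95% intervals over the 9 genes were −0.75 and 0.89, so that a difference within these bounds may have gone undetected with 5 mice a group.

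With PBS the log2FC of KO against WT lay between −0.15 (*P2ry13*) and 0.063 (*Siglech*), and 0 of 9 genes were called, beside 0.8% of all genes. The smallest unadjusted p over the 9 genes was 0.568. Groups overlapped for all 9 genes, and 0.971% of all genes did not overlap. The bounds of the intervals reached from −0.83 to 0.73. The interaction, which compares the LPS response of KO with that of WT, was called at an adjusted p under 0.05 for 0% of all genes (0 of 18739 by edgeR and 0 by DESeq2), while 0.961% had an unadjusted p under 0.05 (180 genes). For the 9 genes it lay between −0.19 (*Sall1*) and 0.33 (*Siglech*), with interval bounds from −1.03 to 1.24 and a smallest unadjusted p of 0.248. Without KO LPS library 3 it was 0.15 for *Siglech* and −0.016 for *P2ry12*. The values of the LPS response in the genotypes stand side by side above, and none of these differences passed the test.

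**Figure D4:**
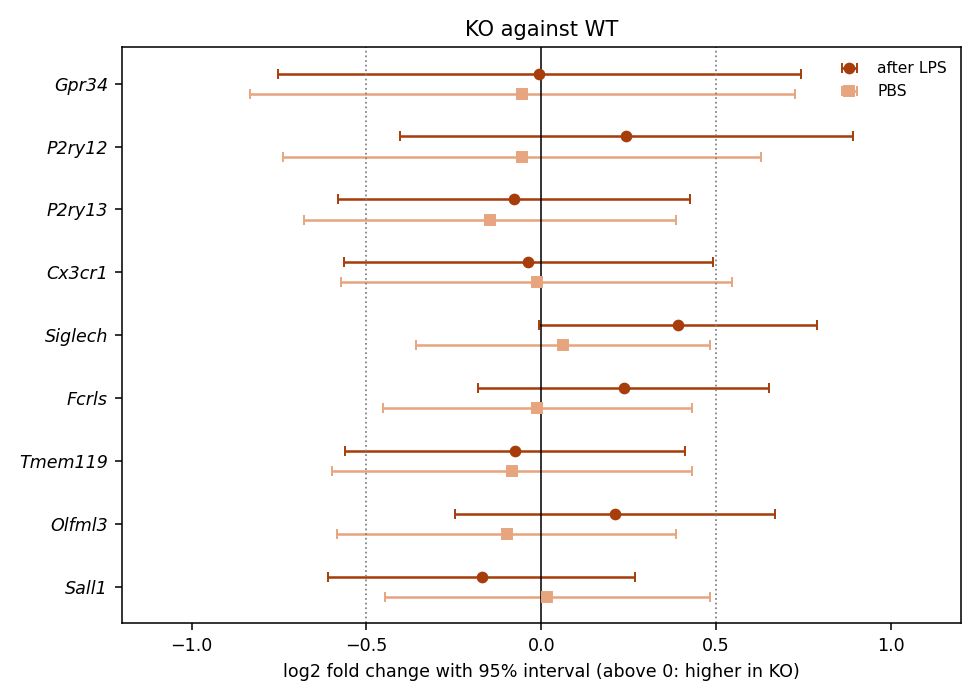
log2FC of KO against WT for the 9 genes after LPS (circles) and with PBS (squares), with 95% intervals and dotted lines at −0.5 and 0.5. Every interval includes 0, *Siglech* after LPS lies highest at 0.39, and the points near 0 change sign with the scaling or a left-out library.

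The wider homeostatic programme moved with the 9 genes. Of 31 other homeostatic microglia genes, 27 were called lower and 0 higher in WT, with a median log2FC of −1.28, and 25 lower and 0 higher in KO, with a median of −1.18. The furthest in WT were *Slc2a5*, a fructose transporter (−4.14 in WT and −3.41 in KO), and *Hpgd*, which breaks down prostaglandins (−3.95 and −3.96). Those with the highest mean CPM were *Csf1r*, the receptor for the growth factors that keep microglia alive (−0.73 and −0.62), and *Cst3*, a protease inhibitor (−0.74 and −0.73). The complement genes *C1qa* (−0.17 and −0.082) and *C1qb* (0.09 and 0.16), the protease gene *Ctss* (−0.20 and −0.17) and *Cd33* (−0.15 and −0.27) were not called in either genotype, and *C1qb* alone had a log2FC above 0. When scaled to the 6 microglial genes, which belong to this list, the counts became 18 lower and 4 higher in WT and 16 lower and 2 higher in KO. KO against WT called 1 of the 31 genes after LPS, *Upk1b* (log2FC 0.70, unadjusted p = 0.0402, adjusted p = 1.00), and 0 with PBS.

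Genes that set microglial identity from outside or above did not follow 1 direction, nor did all genes tested. Of 13 regulators, 3 were called higher and 4 lower in WT, with a median of −0.039. Over all genes tested, 18.4% were called higher and 17.4% lower in WT, and 20.1% and 19% in KO. *Csf1* (1.90), *Runx1* (1.31) and *Spi1*, which encodes PU.1 (1.03), were higher, while *Mef2a* (−0.83), *Tgfb1* (−0.66), *Tgfbr2* (−0.59) and *Smad3* (−0.55) were lower. In KO *Csf1* (2.32), *Runx1* (1.64) and *Spi1* (0.97) were again higher, and *Mef2a* (−0.87) alone was called lower, with a median of −0.065. Scaled to the 6 microglial genes, which moves all genes upwards, 7 regulators were called higher and 0 lower in WT and 6 higher and 0 lower in KO. On that scale *Mef2a* was at −0.081 in WT and −0.28 in KO, and *Tgfb1* (0.12), *Tgfbr2* (0.17) and *Smad3* (0.18) had the opposite sign in WT without being called. In no contrast of KO against WT was a regulator called.

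Of 18 genes that are family relatives or neighbours of the 9 genes, 14 were tested. In WT 3 were called higher and 6 lower, beside 18.4% and 17.4% of all genes tested. In KO 2 were called higher and 5 lower, beside 20.1% and 19%. Scaled to the 6 microglial genes, these counts became 5 higher and 1 lower in WT and 4 higher and 3 lower in KO. *Siglece*, a Siglec of myeloid cells, rose (1.93 in WT and 1.94 in KO) while *Siglech* fell. *Ccr2*, the chemokine receptor of monocytes, rose by less (0.79 and 0.75) while *Cx3cr1* fell. *Gpr171* was called higher in WT at a mean of 0.447 CPM with PBS (1.51).

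**Figure D5:**
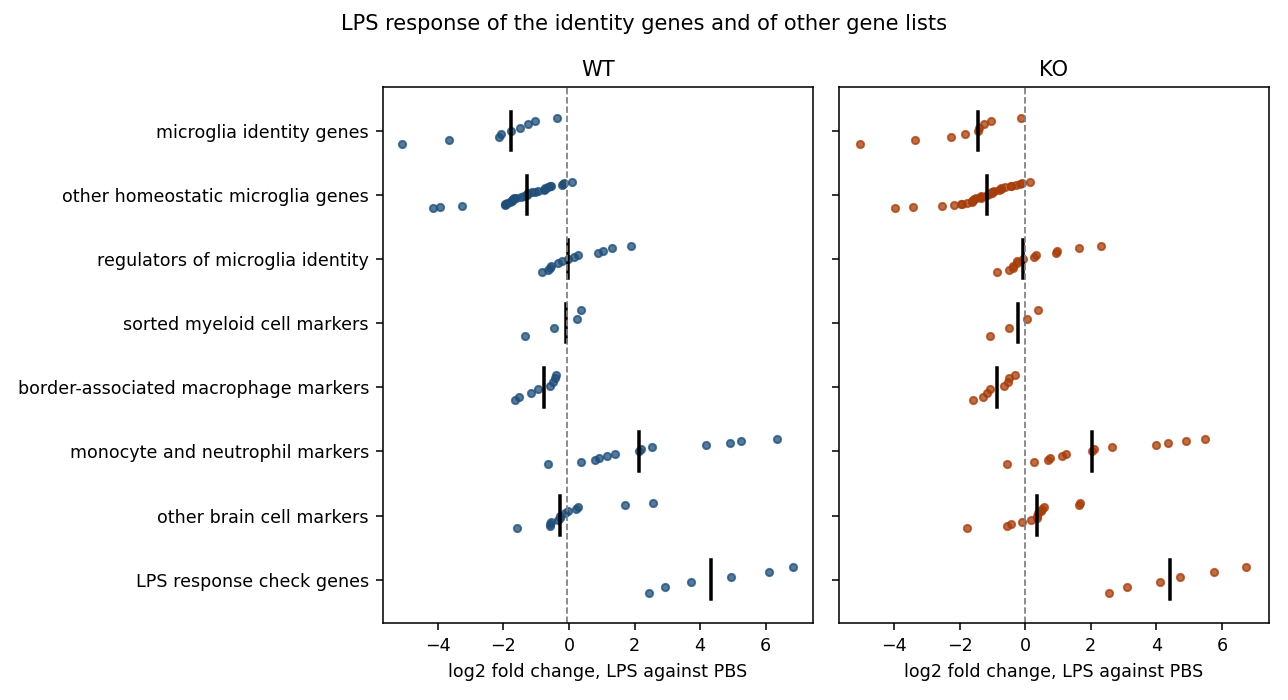
log2FC of LPS against PBS for each tested gene (points) of the 9 identity genes and 7 other lists in WT and KO, with the list's median (bar) and the median of all genes (dashed line), on the TMM scale. The identity and other homeostatic genes lie mostly to the left, and the monocyte and neutrophil markers mostly to the right, while scaling to 6 microglial genes moves all points to the right, to a median of all genes of 0.67 in WT and 0.61 in KO.

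The genes whose pattern over the 19 libraries was most like the mean of the 9 genes were searched among 9414 protein-coding genes with a mean of at least 10 CPM. Likeness was the root mean square difference of centred log2 CPM. The nearest were *Man1c1* (0.089) and *Sirpa* (0.091), followed by *Arhgef6* (0.14), *Rgs10* (0.14) and *Asph* (0.15). Among the 9 genes themselves *Sall1* (0.14) and *Olfml3* (0.15) were nearest to the mean, and *Gpr34* (1.58) and *Fcrls* (0.93) were farthest. The log2FC of *Man1c1* was −2.11 in WT and −2.01 in KO, and that of *Sirpa*, an inhibitory receptor of myeloid cells, −2.05 and −1.94.

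Markers of the sorted cells and of other cells moved in several directions beside these results. Of 4 markers of sorted myeloid cells, *Itgam*, which encodes CD11b itself, was not called (0.24 in WT and 0.069 in KO), nor was *Ptprc*, which encodes CD45 (0.37 and 0.38). *Aif1* was lower (−1.34 and −1.09), and *Adgre1* was at −0.45 in WT and lower in KO (−0.50). Scaled to the 6 microglial genes, 2 of these 4 markers were called higher in each genotype, and 1 lower in WT and 0 in KO. The part of the fall in the 9 genes that goes with fewer microglia was not tested.

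Of 13 monocyte and neutrophil markers, 9 were higher in WT and 10 in KO, led by *Plac8* (6.36 and 5.49) and *Ly6c2* (5.26 and 4.91). *Csf3r*, which has the highest mean CPM of them, was lower (−0.64 and −0.55). On the scale of the 6 microglial genes *Csf3r* was not called lower, since 11 markers were higher and 0 lower in WT and 10 and 0 in KO. The summed level of the 13 markers was 463 to 664 CPM in WT PBS, 716 to 1105 CPM in WT LPS, 439.7 to 688 CPM in KO PBS and 437 to 1140.1 CPM in KO LPS libraries. Without *Csf3r* the sums were 88 to 148, 474 to 847, 54 to 225 and 247 to 842 CPM, so the treatments did not overlap. *Ly6g*, which defines neutrophils, had a mean of 0.74 CPM with PBS and 0.94 CPM with LPS in WT. Apart from *Csf3r*, other neutrophil markers of the list had higher means with LPS than with PBS in WT. These were *Cxcr2* (1.81 with PBS and 32.6 CPM with LPS), *S100a8* (20.2 and 93.2), *S100a9* (9.80 and 42.7) and *Ngp* (28.3 and 74.8). *Mmp9* (14.6 and 32.7 CPM) and *Retnlg* (4.79 and 8.95 CPM) rose by less. The part of incoming cells in the fall of the 9 genes was not tested.

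Border-associated macrophage markers fell with the identity genes, with 5 of 8 lower in each genotype (medians −0.76 and −0.86), and 2 of 8 on the scale of the 6 microglial genes. *Ms4a7* (−1.63 and −1.59) and *Lyve1* (−1.52 and −1.29) fell furthest. *Stab1*, a scavenger receptor with the highest mean CPM of the list, fell by less (−0.57 and −0.63), and *Mrc1*, which defines these macrophages, was not called (−0.41 and −0.30). The summed level was 2207 to 2605 CPM in WT PBS and 1242 to 2552 CPM in WT LPS libraries, and 2124 to 2466 and 1155 to 1812 CPM in KO. Lymphocytes left little trace, since 2 of 9 markers passed the low-count filter and *Cd3e* had 0 counts in 12 of 19 libraries and *Cd3d* and *Cd8a* in 13 of 19. Of these 2, *Cd4*, which myeloid cells also express, was lower (−2.61 and −2.66) and *Nkg7* was not called. The sum of the 9 lymphocyte markers was 8.0 to 11.5 CPM in WT PBS, 1.88 to 3.64 CPM in WT LPS, 7.73 to 9.93 CPM in KO PBS and 1.37 to 3.35 CPM in KO LPS libraries. Most of the sum with PBS was *Cd4*, and without it the other 8 markers summed to 0.328 to 0.97 CPM in WT PBS, 0.597 to 2.59 CPM in WT LPS, 0.432 to 0.89 CPM in KO PBS and 0.281 to 1.73 CPM in KO LPS libraries, with overlap between treatments in both genotypes. Of 13 markers of other brain cells, 2 were higher and 1 lower in each genotype on the TMM scale. Over all genes tested, 18.4% were higher and 17.4% lower in WT, and 20.1% and 19% in KO. Sums of the 13 markers were 644 to 4110, 396 to 3075, 768 to 3108 and 628 to 4213 CPM in the WT PBS, WT LPS, KO PBS and KO LPS libraries. *Mobp* of oligodendrocytes was not called (−0.28 and 0.35). *Tubb3*, a neuronal tubulin, was higher (2.56 and 1.66) and so was the astrocyte gene *Gfap* (1.71 and 1.65), while the endothelial *Cldn5* was lower (−1.58 and −1.78).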

How the data were processed

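RNA of MACS-isolated CD11b+ brain cells was measured in 19 mice. Per the labels and the study's methods, stranded total RNA libraries were made after ribosomal depletion and sequenced as paired reads, which the authors trimmed with cutadapt 0.17.4 and aligned with STAR 2.7.9a (submitters' processing notes) on GRCm39. The deposited values are raw counts per Ensembl gene, without normalization, and the strand setting of the counting is not given in the sources used here.

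Of 56980 genes, 18739 passed filterByExpr (count 10, total 15). Counts were normalized with TMM and tested in 1 edgeR 4.0.16 quasi-likelihood fit (R 4.3.3) with 4 groups. P-values were adjusted over all genes tested by the Benjamini-Hochberg method. SE is |log2FC| divided by the square root of F, and intervals are 95%. The study used DESeq2 (1.42.0 here, as an alternative). The scripts were tested on simulated data. All 36 pairs of replicate libraries were more different than counting noise (chi-square per degree of freedom at least 6.50), so each was 1 replicate.

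GENCODE M39 (GRCm39) gave gene names and coordinates, and RefSeq (GRCm38.p6) the promoter windows. All 9 genes are reported in full. From each other list, the 2 genes with the highest mean CPM, the 2 with the largest LPS response in WT and those against the list's majority were to be named, and other genes were added after their values were seen. Some genes of these lists are not reported here. The members and lists were chosen with earlier results of these data known. Alternatives were other scalings, DESeq2, other filters, thresholds and fits, a block or covariate from the labels, each library left out, and, added after seeing the data, another transcript length.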

Additional observations from a re-analysis of the deposited data

Results flagged for a closer look

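In groups of 4 or 5 libraries, the CPM of the 9 genes, their mean and 5 ratios between them were searched for a highest or lowest library that stood apart from the rest by Dixon's criterion. Over 60 sets searched, 5 held such a library, and chance alone gives about 1 in 20. *Siglech* was highest in KO PBS library 2, at 1348 CPM where the other 4 lay between 918 and 1040 CPM. The *Cx3cr1* to *P2ry12* ratio was lowest in KO LPS library 3, at 3.71 against 16.1 to 18.1, and highest in WT PBS library 2, at 2.61 against 2.38 to 2.42. The *Tmem119* to *P2ry12* ratio was lowest in KO LPS library 3, at 1.28 against 5.52 to 6.81, and highest in KO PBS library 4, at 1.17 against 0.984 to 1.03.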

How the results depend on the processing

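The LPS response of the 9 genes kept its direction and its side of the threshold in 160 of 162 alternative values in WT and 168 of 171 in KO. KO against WT kept both in 149 of 171 values after LPS and 127 of 162 with PBS, and the interaction in 206 of 243; the cause of the other changes was not tested. Scaled to the 6 microglial genes, the log2FC of *Fcrls* for LPS was 0.38 in WT and 0.50 in KO, *Cx3cr1* at PBS was 0.0098, and the interaction was −0.035 for *P2ry13*, −0.077 for *Tmem119* and −0.013 for *Gpr34*. With DESeq2's size factors, *Gpr34* after LPS was 0.014, *Sall1* at PBS −0.0034 and the interaction of *Cx3cr1* 0.015, and with DESeq2 itself 0.016, −0.0027 and 0.014. *Sall1* at PBS was −0.016 without a filter and −0.013 with at least 10 counts in every sample, and the interaction of *Tmem119* was −0.0056 without ribosomal and mitochondrial genes. With the animal number as covariate, *P2ry13*, *Cx3cr1* and *Gpr34* after LPS were 0.070, 0.043 and 0.26, and *P2ry12*, *Cx3cr1*, *Fcrls* and *Gpr34* at PBS 0.11, 0.057, 0.056 and 0.16.

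Deviations of same-numbered libraries correlated with r from 0.027 to 0.54 in KO (mean 0.25) and −0.042 to 0.58 in WT (mean 0.33) across treatments, and from −0.57 to 0.30 after LPS and −0.29 to 0.30 at PBS across genotypes. Since not every pair was above 0.1, the replicate numbers of the labels were not taken to pair the mice. With the replicate block, *Gpr34* after LPS was 0.12, and *P2ry12*, *Fcrls* and *Gpr34* at PBS were 0.065, 0.0093 and 0.063. The block left 8 genes called for LPS in each genotype and 0 for KO against WT.

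When 1 library was left out in turn, 8 genes stayed called for LPS in each genotype, and KO against WT after LPS called between 0 and 1 (*Siglech*). *Fcrls* for LPS in KO ranged from −0.21 to 0.0075. After LPS, KO against WT ranged from −0.25 to 0.39 for *Gpr34*, −0.071 to 0.53 for *P2ry12*, −0.21 to 0.091 for *Tmem119*, −0.25 to 0.12 for *Cx3cr1*, −0.25 to 0.15 for *P2ry13* and −0.30 to 0.075 for *Sall1*. With PBS it ranged from −0.18 to 0.071 for *P2ry12*, −0.11 to 0.098 for *Cx3cr1*, −0.15 to 0.10 for *Fcrls*, −0.18 to 0.060 for *Gpr34*, −0.071 to 0.11 for *Sall1* and −0.048 to 0.19 for *Siglech*. The interaction ranged from −0.13 to 0.17 for *Tmem119*, −0.11 to 0.30 for *P2ry13*, −0.20 to 0.44 for *Gpr34*, −0.016 to 0.58 for *P2ry12*, −0.24 to 0.14 for *Cx3cr1* and −0.32 to 0.058 for *Sall1*.

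Over all genes, KO against WT called 245 after LPS and 150 with PBS, and 854 and 680 without a filter, 111 and 58 with 10 counts in every sample, 471 and 332 with DESeq2, and 2 and 1 at an adjusted p under 0.05. Calls after LPS were 105 with only the groups compared and 434 without KO LPS library 5, and with PBS 91 on the scale of the 6 microglial genes, 234 with the replicate block and 253 with the animal number. Depth did not limit these genes, which all lay far above the floor of 3 counts; the number of mice limits the genotype comparisons.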
